A study of Bos taurus with 32 samples.

Results

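The genes described here were those whose mean level was higher in calves from embryos produced in vitro (IVP) than in control calves in each of 4 tissues, and by the widest margin in the tissue where the margin was smallest. For each gene, counts were divided by the library total and multiplied by 1000000 (CPM). A gene had to have a mean of at least 2 CPM in IVP and in control libraries of every tissue, and its highest tissue mean had to lie under 5 times its lowest. The log2 ratio of the IVP mean over the control mean was then taken in each tissue, and genes were ranked by the smallest of the 4 ratios. Of 27607 Ensembl gene IDs in the count table, 9275 met the limits on level and range, 259 of those were higher in IVP in all 4 tissues, 448 were lower in all 4, and the 60 of highest rank form the list. The members were thus selected on the measured IVP over control ratios, which are given as a description and support nothing.

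RNA came from 4 organs (hypothalamus, pituitary, testicle, adrenal) in 8 male Holstein calves, with 1 library per calf and tissue and 32 libraries in all. The 4 IVP calves (3208, 3209, 5833 and 5841) were 98 to 103 days old. The 4 control calves (3213, 3217, 3218 and 5932) came from embryos formed in vivo after ovarian superstimulation and insemination of a donor cow (MOET, multiple ovulation and embryo transfer), and were 102 to 104 days old except 3213, at 144 days. Embryos of both origins were carried by synchronized recipient cows, and the calves were then kept under like conditions, so embryo transfer is shared by both groups. Replicates are separate animals. Library totals ran from 17357283 to 23380330 counts, and 3 counts stood for 0.173 CPM in the smallest library.

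Embryos made in vitro pass fertilization and the first cell divisions in culture, a time when DNA methylation is erased and set anew. Altered methylation, imprinting and growth of calves from such embryos have been described in cattle. Following the same gene across organs asks whether a difference between the origins is shared by tissues of unlike function. Hypothalamus, pituitary and gonad form the axis that governs reproduction, through releasing hormone, gonadotropins and sex steroids, and the adrenal answers to the pituitary hormone ACTH with glucocorticoids. As no source used here links the Ensembl IDs to names, the members are described by rank and by their values, their functions are not given, and the labelled tissues were not checked against marker genes. In tissue RNA, more cells of a type and more RNA per cell cannot be told apart.

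Of the 32 columns, 5 did not vary as separate libraries do. Each column was compared with the log mean of the other 3 of its group, over the 13800 to 15218 genes with an expected count of at least 20. The median squared deviation, divided by that of counting error, was 2.79 to 67.8 in 27 columns. For MOET calf 3213 it was 0.0269 (hypothalamus), 0.0126 (pituitary), 0.0399 (testicle) and 0.0342 (adrenal), and for adrenal IVP 5833 it was 0.122. In these 5 columns 90.8% to 98.3% of genes lay within 1 counting SD of the mean of the other 3, against 10.5% to 44.9% in the 27. The 5 columns thus lay closer to the mean of their group than counting error alone allows, and they are not separate measurements of that group. The sources used here do not say how these columns were made. Calf 3213 is also the calf sampled at 144 days. Values by library, spreads and tests below therefore use the 27 other libraries (4 IVP and 3 MOET per tissue, and 3 and 3 in the adrenal), with the results from all 32 columns beside them.

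**Figure D1:**
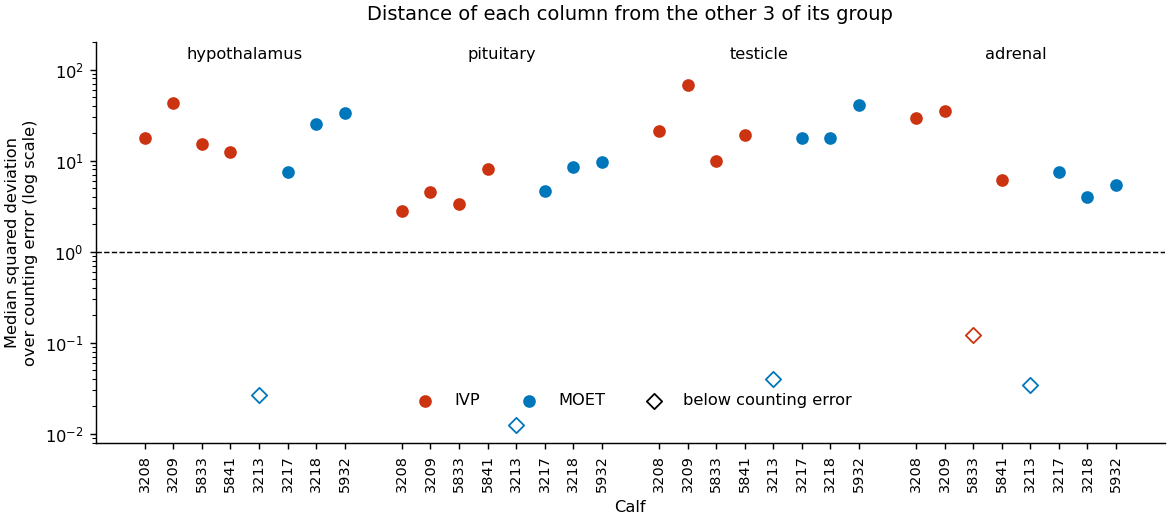
Median squared deviation of each of the 32 columns from the log mean of the other 3 columns of its tissue and origin, in units of counting error, on a log axis where the dashed line marks 1. Filled circles are the 27 libraries at 2.79 to 67.8, and open diamonds are the 5 columns at 0.0126 to 0.122, calf 3213 in every tissue and adrenal IVP 5833.

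Most members differed little between the origins. The smallest of the 4 log2 ratios had a median of 0.10 over the 60 members and ran from 0.06 to 0.66. It was at least 0.5 in 2 members, at least 0.25 in 3, at least 0.2 in 5 and at least 0.1 in 29. The members just inside the edge of the list, ranks 58 to 60, had smallest ratios of 0.07, 0.07 and 0.06, and those just outside, ranks 61 to 63, had 0.06 each, so that the edge does not separate unlike genes. By tissue the members' median log2 ratio was 0.20 (hypothalamus), 0.18 (pituitary), 0.16 (testicle) and 0.22 (adrenal), with highest values of 2.38, 1.14, 0.66 and 1.46. The median within-group SD of a member's log2 CPM was 0.18, 0.16, 0.20 and 0.16 in the same order, and thus about as large as the median ratio. A ratio of at least 1, a doubling of the mean, was found in 4 members, in 3 of them in the hypothalamus. Over the 27 libraries all 60 members remained higher in IVP in each tissue, with medians of 0.19, 0.19, 0.17 and 0.22.

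The ratios also depend on what the counts are divided by. With library totals, the median gene within the limits had a log2 ratio of 0.15 (hypothalamus), 0.06 (pituitary), -0.06 (testicle) or -0.15 (adrenal). With TMM factors, which scale libraries so that most genes match, these medians were -0.01, 0.00, 0.06 and 0.04. Over the 27 libraries, all 60 members lay above the median gene of the tissue in the pituitary, testicle and adrenal. In the hypothalamus 37 did. The median gene had a negative ratio in the testicle (-0.06) and adrenal (-0.15), and the rule had chosen members for positive ratios. In the pituitary it was at 0.066, below the lowest member at 0.070. Only in the hypothalamus was it, at 0.147, above the lowest member, at 0.068. As the rule ranked members on such ratios, nothing is read from these counts. With TMM-scaled CPM of all columns, 33 of the 60 members were higher in IVP in all 4 tissues, and 31 were over the 27 libraries.

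**Figure D2:**
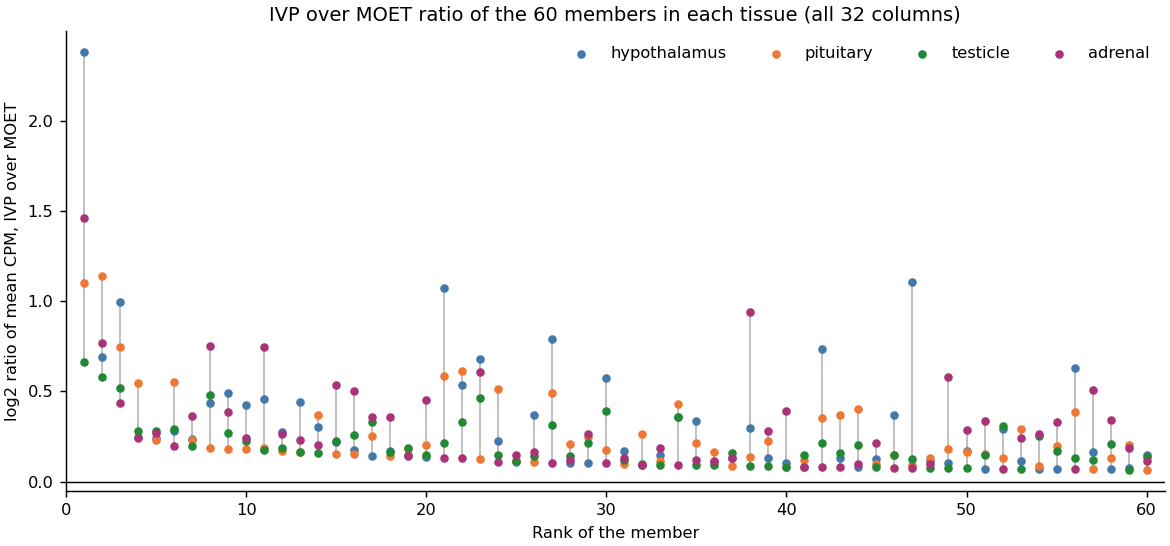
Log2 ratio of mean CPM, IVP over MOET, of the 60 members against their rank, with 1 point per tissue and a grey line from the smallest to the largest ratio of each member, over all 32 columns. Beyond rank 3 the smallest ratio is under 0.25, and single tissues reach higher, as in the hypothalamus at ranks 21 and 47.

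The gene of rank 1, ENSBTAG00000009656, was nearly unread in MOET calf 3217 and was read in every other calf. In this and the following paragraphs IVP values are in the order of calves 3208, 3209, 5833 and 5841 (without 5833 in the adrenal), MOET values in the order of 3217, 3218 and 5932, and all are CPM over library totals. Hypothalamic levels were 31.4, 91.1, 70.2 and 27.1 CPM in IVP and 0, 14.3 and 20.5 CPM in MOET. Pituitary levels were 23.002, 34.4, 25.2 and 32.4 CPM in IVP and 0, 18.8 and 24.9 CPM in MOET. Calf 3217 had 0 counts in both tissues, which allows up to 0.138 CPM in its hypothalamus at a floor of 3 counts. The other libraries of both origins had 14.3 to 91.1 CPM in the hypothalamus and 18.8 to 34.4 CPM in the pituitary. Testicular levels were 28.3, 54.5, 30.7 and 23.3 CPM in IVP and 2.16, 32.3 and 33.5 CPM in MOET. Adrenal levels were 56.2, 103 and 79.8 CPM in IVP and 0, 41.7 and 46.7 CPM in MOET. Calf 3217 had 44 testicular and 0 adrenal counts. The origins did not overlap in the hypothalamus and adrenal, and overlapped in the pituitary and testicle. Group means were 54.9 ± 30.9 CPM in IVP (SD, n = 4) and 11.6 ± 10.5 CPM in MOET hypothalami (SD, n = 3). The log2 ratios by the rule were 2.38 (hypothalamus), 1.10 (pituitary), 0.66 (testicle) and 1.46 (adrenal). Without calf 3217, the 27 libraries gave 1.66, 0.40, 0.06 and 0.85, against 2.25, 0.98, 0.60 and 1.43 with it. Without IVP 3209 the testicular ratio was 0.28.

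The gene of rank 2, ENSBTAG00000051519, separated calves more than origins. Hypothalamic levels were 7.06, 16.6, 20.1 and 19.98 CPM in IVP and 5.11, 17.7 and 7.46 CPM in MOET. Pituitary levels were 4.11, 13.6, 13.1 and 16.2 CPM in IVP and 2.47, 9.37 and 4.62 CPM in MOET. IVP calf 3208 was as low as the lower MOET calves, and MOET calf 3218 lay within the range of the higher IVP calves in the hypothalamus. Testicular levels were 2.89, 8.87, 8.32 and 9.57 CPM in IVP and 3.19, 8.49 and 3.52 CPM in MOET. Adrenal levels were 8.85, 21.6 and 19.3 CPM in IVP and 6.01, 15.2 and 8.08 CPM in MOET. Calf 3208 was the lowest IVP calf and 3218 the highest MOET calf in all 4 tissues, and the origins overlapped in each. Pituitary means were 11.7 ± 5.27 CPM in IVP (SD, n = 4) and 5.49 ± 3.53 CPM in MOET (SD, n = 3). The log2 ratios by the rule were 0.69 (hypothalamus), 1.14 (pituitary), 0.58 (testicle) and 0.77 (adrenal). Leaving out any 1 calf kept all 4 ratios over 0, with a smallest ratio between 0.30 (without 3217) and 1.15 (without 3218).

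The gene of rank 3 had less spread among calves of 1 origin. Hypothalamic levels were 11.3, 11.2, 12.6 and 10.7 CPM in IVP and 5.75, 4.06 and 7.36 CPM in MOET. Pituitary levels were 12.6, 16.9, 17.4 and 15.6 CPM in IVP and 8.07, 8.47 and 11.4 CPM in MOET. Every IVP library lay above every MOET library in these 2 tissues. Testicular levels were 12.5, 15.3, 16.9 and 14.6 CPM in IVP and 8.04, 7.602 and 15.4 CPM in MOET. Adrenal levels were 30.8, 21.2 and 32.8 CPM in IVP and 20.6, 19.9 and 22.5 CPM in MOET. MOET 5932 lay within the IVP range in the testicle, and IVP 3209 lay within the MOET range in the adrenal. Hypothalamic means were 11.4 ± 0.793 CPM in IVP (SD, n = 4) and 5.73 ± 1.65 CPM in MOET (SD, n = 3). The log2 ratios by the rule were 0.997 (hypothalamus), 0.75 (pituitary), 0.52 (testicle) and 0.44 (adrenal). Its smallest ratio stayed between 0.31 and 0.50 whichever calf was left out of the 27 libraries. In edgeR's quasi-likelihood test it was past the threshold in the pituitary (adjusted p = 0.0452 over the 27 libraries and 0.00903 over all columns) and not in the hypothalamus (0.374 and 0.128). The rule ranked the gene on this same contrast, so nothing is read from these p-values.

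**Figure D3:**
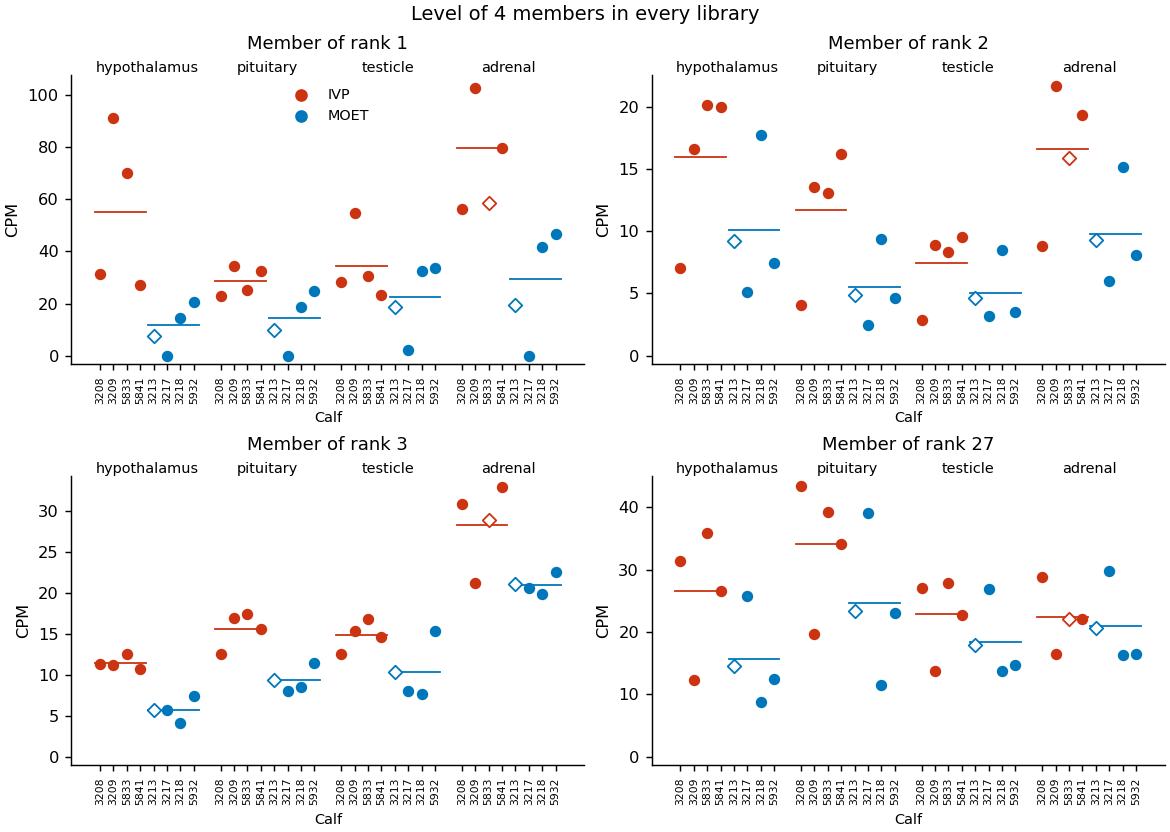
Level in CPM of the members of ranks 1, 2, 3 and 27 in every library by tissue and calf, IVP in red and MOET in blue. Horizontal lines are group means over filled circles, and open diamonds are the columns that lay on the mean of their group. Rank 1 is at 0 to 2.16 CPM in MOET 3217, ranks 2 and 27 have the same lowest IVP and highest MOET calf in each tissue, and rank 3 keeps the origins apart in the hypothalamus and pituitary.

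The members of ranks 4 to 12 had smallest ratios of 0.17 to 0.24. Rank 4 again differed by calf, with IVP 3209 low and MOET 3217 high. Hypothalamic levels were 33.1, 28.8, 52.5 and 35.9 CPM in IVP and 34.8, 34.3 and 26.1 CPM in MOET. Pituitary levels were 28.1, 24.1, 36.8 and 39.01 CPM in IVP and 26.2, 17.3 and 22.3 CPM in MOET. Testicular levels were 27.6, 19.7, 42.3 and 33.95 CPM in IVP and 32.6, 23.1 and 20.97 CPM in MOET. In these tissues 3209 was the lowest IVP library and 3217 the highest MOET library, and the origins overlapped. Adrenal levels were 31.9, 25.6 and 30.9 CPM in IVP and 31.3, 22.3 and 21.3 CPM in MOET. The same calves were lowest and highest there, and the log2 ratios were 0.25 (hypothalamus), 0.55 (pituitary), 0.28 (testicle) and 0.24 (adrenal). Without IVP 5833 the ratio over the 27 libraries was 0.04 in the hypothalamus and 0.09 in the testicle. Rank 5 kept the origins apart in the testicle alone. Hypothalamic levels were 42.5, 52.6, 54.4 and 49.98 CPM in IVP and 45.4, 45.05 and 35.9 CPM in MOET. Pituitary levels were 19.2, 18.4, 21.4 and 27.6 CPM in IVP and 18.2, 18.3 and 18.8 CPM in MOET. IVP 3208 overlapped with MOET in the hypothalamus, as did 3209 in the pituitary. Testicular levels were 49.8, 57.5, 59.7 and 57.1 CPM in IVP and 47.2, 44.5 and 45.8 CPM in MOET. Adrenal levels were 96.3, 74.6 and 109 CPM in IVP and 85.97, 80.3 and 66.5 CPM in MOET. In the adrenal 3209 lay below 2 of the 3 MOET libraries. Its 4 ratios were 0.24 (hypothalamus), 0.23 (pituitary), 0.28 (testicle) and 0.27 (adrenal). Over the 27 libraries they fell to 0.09 in the pituitary and 0.14 in the adrenal without IVP 5841, and to 0.14 in the hypothalamus and 0.16 in the adrenal without MOET 5932.

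Ranks 6, 8 and 9 had low counts, under 10 CPM in most libraries. For rank 6, only the pituitary kept the origins apart. Hypothalamic levels were 6.56, 3.86, 5.78 and 4.66 CPM in IVP and 3.86, 4.66 and 4.38 CPM in MOET. Pituitary levels were 5.78, 7.44, 5.599 and 5.68 CPM in IVP and 4.303, 3.55 and 4.67 CPM in MOET. IVP 3209 was the highest pituitary library and, with MOET 3217, the lowest of the hypothalamus. Testicular levels were 4.39, 2.44, 3.55 and 3.52 CPM in IVP and 3.19, 3.06 and 2.28 CPM in MOET. Adrenal levels were 2.95, 5.03 and 3.18 CPM in IVP and 3.22, 3.17 and 3.401 CPM in MOET. Calf 3209 was the lowest IVP library in the testicle and the highest in the adrenal, where IVP 3208 lay below and 5841 within the MOET range. The log2 ratios were 0.28 (hypothalamus), 0.55 (pituitary), 0.29 (testicle) and 0.20 (adrenal). Without 3209 the adrenal ratio over the 27 libraries turned to -0.09. Rank 8 kept the origins apart in the hypothalamus, narrowly, and in the adrenal. Hypothalamic levels were 4.57, 5.69, 4.92 and 4.66 CPM in IVP and 3.404, 4.51 and 3.08 CPM in MOET. Pituitary levels were 3.09, 3.88, 4.28 and 3.001 CPM in IVP and 2.56, 3.81 and 3.03 CPM in MOET. The pituitary ranges overlapped. Testicular levels were 4.53, 5.97, 4.64 and 3.21 CPM in IVP and 3.23, 2.86 and 3.79 CPM in MOET. Adrenal levels were 3.52, 6.09 and 3.901 CPM in IVP and 2.63, 2.68 and 2.76 CPM in MOET. The adrenal ratio of 0.75 was the largest of its 4, and the pituitary ratio over the 27 libraries was 0.19 with every calf, 0.06 without MOET 3217 and 0.09 without IVP 5833. Rank 9 overlapped in every tissue. Hypothalamic levels were 4.93, 4.09, 5.96 and 4.96 CPM in IVP and 3.63, 2.73 and 4.28 CPM in MOET. Pituitary levels were 3.36, 3.56, 3.69 and 5.41 CPM in IVP and 3.72, 2.82 and 4.05 CPM in MOET. A MOET library, 5932, was above all but 1 of the IVP pituitaries. Testicular levels were 6.12, 7.903, 8.27 and 9.21 CPM in IVP and 5.05, 7.21 and 7.31 CPM in MOET. Adrenal levels were 12.9, 10.5 and 17.7 CPM in IVP and 11.2, 8.85 and 11.6 CPM in MOET. IVP 5841 was the highest library in the pituitary, testicle and adrenal. The log2 ratios were 0.49 (hypothalamus), 0.18 (pituitary), 0.27 (testicle) and 0.39 (adrenal). Over the 27 libraries the pituitary ratio fell to 0.00159 without 5841 and to 0.04 without MOET 3218.

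Rank 7 kept the origins apart in the pituitary. Hypothalamic levels were 8.37, 9.501, 9.58 and 10.3 CPM in IVP and 7.04, 8.92 and 8.08 CPM in MOET. Pituitary levels were 7.196, 7.94, 7.101 and 7.46 CPM in IVP and 6.77, 6.501 and 5.64 CPM in MOET. The lowest IVP pituitary was above the highest MOET pituitary by under 1 CPM. Testicular levels were 10.2, 11.2, 14.1 and 12.2 CPM in IVP and 9.61, 10.5 and 11.1 CPM in MOET. Adrenal levels were 10.7, 12.8 and 9.65 CPM in IVP and 7.78, 9.999 and 8.08 CPM in MOET. Testicular and adrenal ranges overlapped, and the testicular ratio over the 27 libraries fell from 0.20 to 0.11 without IVP 5833. Rank 10 was apart in the hypothalamus and adrenal. Hypothalamic levels were 30.7, 31.7, 32.2 and 33.4 CPM in IVP and 23.7, 21.6 and 26.1 CPM in MOET. Pituitary levels were 56.996, 55.7, 51.3 and 57.8 CPM in IVP and 46.3, 46.7 and 53.04 CPM in MOET. The 4 IVP hypothalami lay within 3 CPM of each other and above all MOET hypothalami. Testicular levels were 42.8, 51.6, 44.1 and 41.5 CPM in IVP and 34.5, 35.8 and 44.9 CPM in MOET. Adrenal levels were 64.7, 56.6 and 62.9 CPM in IVP and 50.7, 49.3 and 56.2 CPM in MOET. MOET 5932 was the highest control library in each tissue and overlapped with IVP in the pituitary and testicle. The log2 ratios were 0.42 (hypothalamus), 0.18 (pituitary), 0.22 (testicle) and 0.24 (adrenal).

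Rank 11 turned direction when calves were left out. Hypothalamic levels were 22.7, 13.2, 24.5 and 24.3 CPM in IVP and 12.4, 13.7 and 20.4 CPM in MOET. Pituitary levels were 11.3, 11.3, 9.74 and 10.96 CPM in IVP and 10.5, 7.66 and 10.3 CPM in MOET. IVP 3209 stood below the other IVP hypothalami and within the MOET range. Testicular levels were 5.74, 2.66, 3.68 and 4.24 CPM in IVP and 4.12, 4.15 and 2.65 CPM in MOET. Adrenal levels were 3.05, 10.7 and 3.64 CPM in IVP and 2.41, 3.82 and 4.25 CPM in MOET. In the adrenal 3209 was above 10 CPM while the other adrenals among the 27 libraries were under 5 CPM. Its smallest ratio over the 27 libraries was -0.04 without 3208 (testicle), -0.06 without 3209 (adrenal) and -0.02 without MOET 5932 (testicle). Rank 12 was apart in the adrenal. Hypothalamic levels were 19.5, 26.7, 23.8 and 24.7 CPM in IVP and 21.3, 17.1 and 20.2 CPM in MOET. Pituitary levels were 50.9, 52.9, 50.9 and 57.4 CPM in IVP and 43.3, 43.9 and 53.7 CPM in MOET. MOET 5932 exceeded all IVP pituitaries but 5841. Testicular levels were 73.2, 97.6, 70.3 and 65.5 CPM in IVP and 59.99, 65.4 and 76.4 CPM in MOET. Adrenal levels were 46.5, 56.4 and 52.4 CPM in IVP and 41.7, 45.1 and 43.2 CPM in MOET. Testicular ranges overlapped, again through 5932, and the testicular ratio over the 27 libraries fell from 0.19 to 0.05 without IVP 3209.

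Ranks 21 and 22 were chosen for description after their values were seen, because they were past the threshold for the mean effect over the 4 tissues when all columns were used. For rank 21 the difference lay in the hypothalamus and pituitary. Hypothalamic levels were 12.5, 11.01, 11.7 and 12.4 CPM in IVP and 6.03, 4.66 and 6.16 CPM in MOET. Pituitary levels were 12.9, 14.6, 14.3 and 16.05 CPM in IVP and 9.28, 8.77 and 10.8 CPM in MOET. The origins were apart in both. Testicular levels were 19.5, 16.4, 21.1 and 18.6 CPM in IVP and 16.03, 17.5 and 15.2 CPM in MOET. Adrenal levels were 5.64, 4.53 and 5.75 CPM in IVP and 4.29, 5.25 and 4.89 CPM in MOET. Testicular and adrenal libraries overlapped, and the log2 ratios were 1.07 (hypothalamus), 0.58 (pituitary), 0.21 (testicle) and 0.13 (adrenal). Rank 22 was apart in 3 tissues, which no other member was. Hypothalamic levels were 24.7, 25.96, 27.9 and 29.7 CPM in IVP and 17.8, 17.05 and 21.03 CPM in MOET. Pituitary levels were 39.8, 43.1, 37.1 and 43.8 CPM in IVP and 26.8, 23.8 and 29.4 CPM in MOET. Each IVP library was above each MOET library in both. Testicular levels were 43.5, 37.2, 43.4 and 44.5 CPM in IVP and 35.8, 34.01 and 30.3 CPM in MOET. Adrenal levels were 46.9, 40.8 and 42.8 CPM in IVP and 37.8, 42.2 and 39.5 CPM in MOET. In the adrenal 1 MOET library was above 1 IVP library, and the log2 ratios were 0.54 (hypothalamus), 0.61 (pituitary), 0.33 (testicle) and 0.13 (adrenal). With limma on the means of each calf, the adjusted p was 0.0234 for rank 21 and 0.00697 for rank 22 over all columns, and 0.286 and 0.252 over the 27 libraries. Both genes were ranked on this contrast and picked for description by this test, so nothing is read from these p-values. Leaving out any 1 calf of the 27 libraries kept all 4 ratios of both genes over 0, with adrenal ratios as low as 0.07 for rank 21 (without MOET 3217) and 0.07 for rank 22 (without IVP 3208).

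How many members were past a threshold differed between the 27 libraries and all columns. Leaving out the 5 columns also leaves fewer libraries, and what made the counts differ was not tested. As the rule used this contrast, nothing is read from the counts. In the pituitary 3 members were higher in IVP by edgeR's quasi-likelihood test over the 27 libraries, ranks 3, 21 and 22 (adjusted p = 0.0452, 0.0397 and 0.0137), against 1.02% of the genes within the limits. Over all columns 8 members were, against 8.17%. In the adrenal 45 members were called over all columns, against 27.2% of genes, and 0 over the 27 libraries, against 0% of genes. Over the 27 libraries 36 members were higher at an unadjusted p under 0.05, as were 2494 of all 15595 genes tested. The lowest edgeR adjusted p of a member there was 0.105. In the hypothalamus 0 members were called by edgeR over either set, against 0% and 0.0216% of genes. At an unadjusted p under 0.05, 8 members were higher over the 27 libraries and 10 over all columns. Among all genes tested 948 of 16297 and 1946 of 16066 were. DESeq2 called 7 members over all columns, against 1250 of 16066 genes in either direction. In the testicle 0 were called over either set, against 0% of genes for each. At an unadjusted p under 0.05, 4 members were higher over the 27 libraries and 9 over all columns. Among all genes tested 255 of 16518 and 520 of 16352 were. DESeq2 called 2 members over all columns, against 289 of 16352 genes in either direction. For the mean over the 4 tissues, limma called 0 members over the 27 libraries against 0% of genes. There 26 members were higher at an unadjusted p under 0.05, as were 511 of all 18423 genes tested. Over all columns it called 2 against 0.0216%, ranks 21 and 22. A voom fit of all columns that blocked on the animal, instead of averaging its tissues, called 25 members. Among all 18242 genes tested that fit called 677, in either direction. Whether the difference was unequal between tissues was called in 0 members over the 27 libraries (edgeR F test, 6 at an unadjusted p under 0.05), against 0.0647% of genes, and in 10 over all columns, against 35.6%. At that unadjusted p there were 4502 of all 18423 genes tested over the 27 libraries.

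The origins were apart, with the lowest IVP above the highest MOET library among the 27, in 17 of 60 members in the hypothalamus, against 10.9% of the genes within the limits. The count was 12 in the pituitary against 8.5%, 7 in the testicle against 0.582% and 23 in the adrenal against 11%. In 21 members the origins overlapped in every tissue, in 20 they were apart in 1 tissue, in 18 in 2, in 1 (rank 22) in 3, and in 0 in all 4. Thus 19 members were apart in at least 2 tissues, against 2.47% of genes, and since the rule asked for a higher IVP mean in every tissue, nothing is read from these counts. With TMM-scaled CPM the counts were 10 (hypothalamus), 14 (pituitary), 11 (testicle) and 42 (adrenal). The share of all genes within the limits was not taken under this scaling. The shares above do not apply to these 4 counts, and nothing is read from them either. Counted over tissues, 8 members were above the MOET mean of their tissue in all 15 IVP libraries, the median member in 13 and the lowest in 9. No such count was taken for the other genes. The rule asked for a higher IVP mean in every tissue, so nothing is read from this count.

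In some members most of the spread among calves of 1 origin went with the calf in all tissues. The share of a gene's spread within tissue and origin that went with the calf was taken from log2 CPM over the 27 libraries. If the libraries of a calf were unrelated, the share would be 26.3% on average, from 5 of 19 degrees of freedom. The median was 38.4% in the members and 35.0% in the other genes within the limits. The share was at least 75% in 8 members (13.3%) and in 48 other genes (0.521%), and at least 90% in 3 members (5%) and 4 other genes (0.0434%). The 3 members were rank 2 (96.7%), rank 1 (94.7%) and rank 27 (91.5%). In an edgeR F test of differences between calves of 1 origin, added after the data were seen, 5 members were called over the 27 libraries, against 0.323% of genes within the limits, and 6 over all columns, against 0.604%. The test does not use the difference between origins. A wide spread among calves also widens the difference of group means on which the rule ranks, so this count is not independent of the choice of members.

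The 5 members were ranks 1 (adjusted p = 7.88e-04), 2 (7.29e-07), 4 (0.0184), 27 (2.72e-05) and 42 (0.0311), of which the last 2 are described because of this test. Rank 27 was low in IVP 3209 and high in MOET 3217. Hypothalamic levels were 31.5, 12.3, 35.8 and 26.6 CPM in IVP and 25.7, 8.72 and 12.5 CPM in MOET. Pituitary levels were 43.4, 19.7, 39.3 and 34.1 CPM in IVP and 39.1, 11.6 and 23.1 CPM in MOET. Testicular levels were 27.1, 13.7, 27.8 and 22.7 CPM in IVP and 26.9, 13.8 and 14.7 CPM in MOET. The origins overlapped in each of these tissues. Adrenal levels were 28.8, 16.5 and 22.1 CPM in IVP and 29.8, 16.4 and 16.5 CPM in MOET. Calf 3209 was the lowest IVP and 3217 the highest MOET library in all 4 tissues. Without IVP 3208, MOET 3218 or MOET 5932 its adrenal ratio was -0.12, -0.04 or -0.04. Rank 42 was high in IVP 3208. Hypothalamic levels were 23.3, 16.04, 20.7 and 18.3 CPM in IVP and 12.7, 10.7 and 11.8 CPM in MOET. Pituitary levels were 42.3, 35.9, 34.1 and 35.1 CPM in IVP and 31.9, 28.5 and 25.7 CPM in MOET. The origins were apart in these tissues. Testicular levels were 35.1, 20.6, 28.1 and 27.7 CPM in IVP and 26.4, 26.7 and 19.05 CPM in MOET. Adrenal levels were 37.1, 19.6 and 27.4 CPM in IVP and 27.3, 27.9 and 24.4 CPM in MOET. In the testicle and adrenal 3208 was the highest library and 3209 the lowest IVP library, and the origins overlapped. Without 3208 its adrenal ratio was -0.18. The source of the differences between these calves was not tested.

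The list as a whole also leaned on particular calves. In each library, the members' median deviation from the midpoint of the origins was compared with that of the other genes within the limits. In the testicle of IVP 3209 it was 0.18 on the log2 scale for the members and -0.20 for other genes, and in the adrenal 0.19 and -0.14. Both libraries had the lowest TMM factor of their tissue, 0.82 in the testicle (others 0.96 to 1.09) and 0.89 in the adrenal (others 0.93 to 1.10). Genes enriched in the tissue held 7.28% of the testicular counts (others 4.88% to 6.73%) and 2.00% of the adrenal counts (others 0.685% to 1.33%). The part of these shares in the deviations was not tested. In IVP 3208 the members were at 0.02 (hypothalamus), 0.07 (pituitary), 0.02 (testicle) and -0.00164 (adrenal), with other genes at 0.03, -0.01, -0.00333 and -0.02. The highest value of the 27 libraries was 0.25 in pituitary IVP 5841, where other genes stood at 0.14. All 12 MOET libraries had a negative median for the members, from -0.17 to -0.03, and 14 of the 15 IVP libraries a positive one, as the rule requires of the means. Averaged over tissues within IVP, 33 members (55%) were highest in 3209 and 5 (8.33%) in 3208, against 32.4% and 27.9% of the other genes. Hypothalamus IVP 5833 had 0.454% of its counts in genes enriched in the pituitary, against 0.0401% to 0.176% in the other 7 hypothalamic columns, and its part in the hypothalamic ratios was not tested. Without 5833, 57 members were higher in IVP in all tissues over the 27 libraries. The number was 45 without 3209, 50 without 5932 and 55 to 58 without any other calf.

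**Figure D4:**
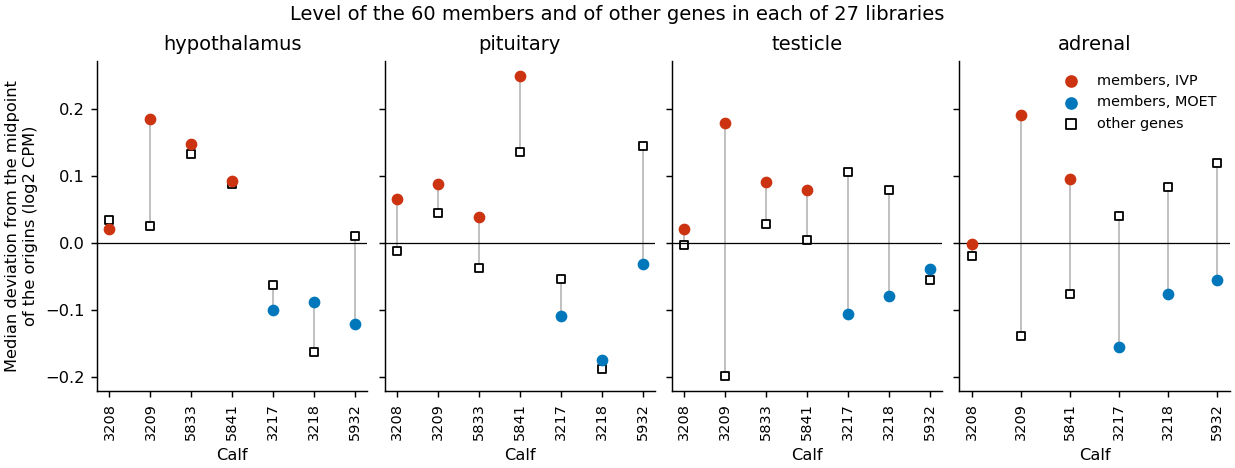
Median deviation of log2 CPM from the midpoint between the origins in each of the 27 libraries, by tissue and calf, for the 60 members (filled circles, IVP red and MOET blue) and for the other genes within the limits (open squares), joined by a grey line. Members and other genes lie farthest apart in testicle and adrenal of IVP 3209, at 0.18 and -0.20 and at 0.19 and -0.14.

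Which genes made the list depended on single calves and on the scaling. Rebuilt without the 5 columns, the list shared 59 of 60 genes. Rebuilt on those 27 libraries without 1 calf, it shared 22 genes without IVP 3209, 29 without MOET 5932, 30 without MOET 3217, 36 without MOET 3218, and 38 to 43 without IVP 5841, 5833 or 3208. In all 7 of these lists 8 members remained, ranks 2, 3, 5, 7, 10, 14, 16 and 17, of which 4 were also in the list from TMM-scaled CPM. More members kept their direction than their place: 35 of 60 were higher in IVP in every tissue in all 7 settings, and 19 of these with TMM-scaled CPM too. Over all columns, another level limit shared 47 members (1 CPM) or 48 (5 CPM), and another limit on the range 42 (3-fold) or 41 (none). Group medians in place of means shared 36 over all columns, and TMM-scaled CPM 17. Over the 27 libraries TMM-scaled CPM shared 15.

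**Figure D5:**
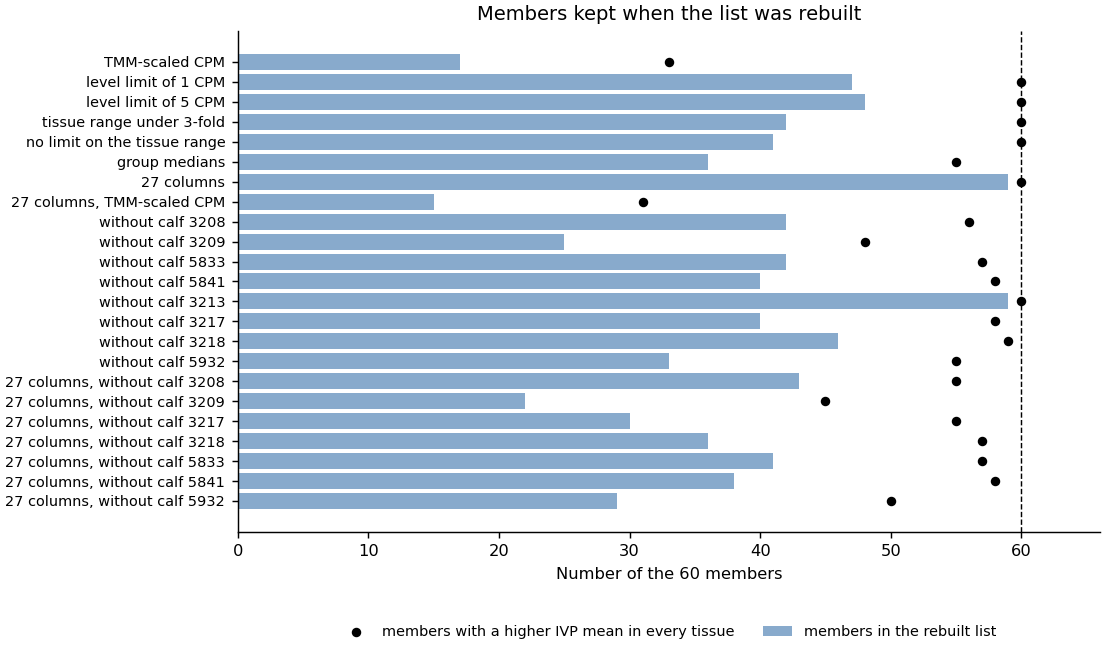
Bars show how many of the 60 members were in the list when it was rebuilt under each setting named on the vertical axis, and black points how many had a higher IVP mean in every tissue. Bars run from 15 (27 libraries with TMM-scaled CPM) to 59, and points from 31 to 60.

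To read the ratios in animals that had no part in the choice, the list was rebuilt on the 27 libraries without 1 IVP and 1 MOET calf and then read in those 2 calves. There were 12 such pairs of calves, 9 in the adrenal, and they share calves and are not independent. Each pair had its own list of 60 genes, which is not the list of members described above. In the calves that chose them, the genes had a median log2 ratio of 0.27 (hypothalamus), 0.22 (pituitary), 0.20 (testicle) and 0.27 (adrenal). In the pair left out it was 0.16 (-0.02 to 0.30 over pairs), 0.17 (-0.11 to 0.43), 0.01 (-0.25 to 0.11) and 0.09 (-0.20 to 0.17). The other genes within the limits had 0.14, 0.07, -0.07 and -0.16 in the same pairs. The list lay above the other genes in 6 of 12 pairs in the hypothalamus, 12 of 12 in the pituitary, 9 of 12 in the testicle and 8 of 9 in the adrenal, by a median of -0.01, 0.07, 0.12 and 0.17. As the same calves recur among pairs, these counts are not counts of separate animals. The median ratio was thus smaller in the calves left out than in those that chose the list, in each tissue. The genes of each list were chosen on their ratio in the calves that chose them, so nothing more is read from this difference. Its cause was not tested.

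The members were genes of middle level read in all 4 tissues, as the limits require. Their mean over tissues had a median of 27.5 CPM and ran from 3.29 to 744 CPM, against a median of 34.5 CPM in the other genes within the limits, and 12 members were under 5 CPM in at least 1 group. CPM are not divided by gene length, so levels are not compared between genes. The level was highest in the adrenal in 23 members (38.3%), in the testicle in 17 (28.3%), and in the hypothalamus and pituitary in 10 each (16.7%). Among other genes these shares were 33.3%, 29.8%, 19.3% and 17.6%. Tissue changed the level of 56 members over the 27 libraries, against 97.2% of genes, and of 58 over all columns, against 98.3% (edgeR F test). The 4 that did not pass over the 27 libraries were ranks 1, 8, 23 and 33 (adjusted p = 0.589, 0.255, 0.0764 and 0.117). The range between tissues had a median of 2.37-fold in the members and 2.14-fold in other genes, under the limit of 5-fold.

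The median correlation between pairs of members, over the 27 libraries after group means were removed, was 0.12 over 1770 pairs, with quartiles of -0.14 and 0.36. Among other genes it was 0.19, with quartiles of -0.26 and 0.58. These are descriptions across genes of the same libraries. Birth weight, which was 36 to 41 kg in IVP and 33 to 39 kg in MOET calves, was related to 0 members in limma on calf means with origin in the model, over the 27 libraries and over all columns, against 0% of genes in each. At an unadjusted p under 0.05 there were 3 members over either set. Among all genes tested there were 585 of 18423 over the 27 libraries and 479 of 18242 over all columns. Over the 27 libraries the 3 members were rank 3 at 0.06 log2 CPM per kg, rank 24 at -0.08 and rank 58 at -0.06 (each with a limma adjusted p of 0.868).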

How the data were processed

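Poly(A)-selected RNA of 4 tissues from 8 calves was sequenced as paired-end reads on a DNBSEQ instrument, without strand; SOAPnuke removed poor reads, per the labels' protocols. Per the submitters' processing notes, the tools of the authors included HTSeq and STAR 2.7, with build bosTau9; annotation release and counting options: not given in the sources used here. Each deposited value is a raw count for 1 Ensembl gene ID. Unnamed rows numbered 0, as did columns of another series. Without strand, a gene and its antisense partner cannot be told apart; near-identical genes may share reads. The members and lists were chosen with earlier results of these data known.

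CPM were counts over column totals. Tests ran over all genes kept by filterByExpr (minimum count 10, minimum total count 15), with TMM factors, edgeR 4.0.16's quasi-likelihood test, limma 3.58.1 with trend on calf means of log2 CPM (prior count 2), and Benjamini-Hochberg adjustment at 0.05, in R 4.3.3. An offset of 0.5 CPM was added before log2 values of single libraries. DESeq2 1.42.0 was an alternative. The fits of all 32 columns were the planned ones; the 27 libraries, the test between calves and the lists read in calves left out were added after the data were seen. Floors of 3 counts cover counting error only. The calf numbers mark the same animal in the 4 tissues and so pair libraries across tissues, not IVP with MOET calves; the calf took a median of 35.0% of the spread within groups over the 27 libraries in the genes outside the list, where unrelated libraries would give 26.3%. No column was identical to another (0 pairs). Values by library are given for ranks 1 to 12, which include the highest ratio of each tissue, and the edge of the list for ranks 58 to 63. Of the Ensembl IDs 0 matched a symbol in the reference table used, so planned gene lists, cell type markers, promoter motifs and sequences were not analysed here. The scripts were tested on simulated data.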

Additional observations from a re-analysis of the deposited data

Results flagged for a closer look

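In 3 of 39 groups of 4 libraries, those of ranks 1 to 12 and of the members' mean, the highest or lowest library stood apart from the other 3 by Dixon's 95% criterion; chance flags about 1 in 20 groups. In the pituitary, IVP 3209 was at 7.44 CPM for rank 6, where the other IVP libraries were at 5.60 to 5.78 CPM. Pituitary IVP 5841 was at 5.41 CPM for rank 9, above 3.36 to 3.69 CPM in the other 3. Hypothalamus IVP 3209 was at 13.2 CPM for rank 11, below 22.7 to 24.5 CPM. MOET groups and the IVP adrenals hold 3 separate libraries and were not examined.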

How the results depend on the processing

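Membership depended on the scaling and on single calves. Of the 60 genes, 17 met the rule with TMM-scaled CPM, 36 with group medians in place of means, and 15 with TMM-scaled CPM over the 27 libraries. Leaving out 1 calf at a time kept 25 (without calf 3209) to 59 of them over all columns. Over the 27 libraries, 22 were kept without calf 3209, 29 without 5932, 30 without 3217, 36 without 3218 and 38 without 5841.

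Counts of members called at an adjusted p under 0.05 moved as follows. The test was edgeR's quasi-likelihood test unless named otherwise, and limma for the mean effect (with voom for the block). Gene counts in brackets are those called among all genes tested, in either direction. In the hypothalamus 0 (9 of 16066 genes) became 7 with DESeq2 (1250 of 16066) and 0 to 1 without 1 calf (1 without 3209, with 44 of 16244 genes). In the testicle 0 (1 of 16352 genes) became 2 with DESeq2 (289 of 16352). In the pituitary 8 (2417 of 15807 genes) became 3 with age as a covariate (266 of 15807) and 3 over the 27 libraries (378 of 15979). Without 1 calf it was 3 (without calf 3213, with 378 of 15979 genes) to 9 (1885 of 15962 genes without 3218, and 2822 of 15913 without 5932). Age was 98 to 104 days in every calf but 3213, at 144 days, and 3213 is the pituitary column outside the 27 libraries. Age, the 27 libraries and leaving out 3213 are thus not separate alternatives here. In the adrenal 45 (6068 of 15437 genes) became 26 with age as a covariate (2905 of 15437) and 0 over the 27 libraries (2 of 15595). Without 1 calf the count ran from 25 (without 5833, with 2521 of 15661 genes) to 50 (without 3208, with 8234 of 15672). For the mean effect over the tissues 2 (12 of 18242 genes) became 0 over the 27 libraries (2 of 18423). With 1 calf left out it was 0 to 18 (without 3209, with 1905 of 18375 genes). For the variation of the effect between tissues 10 (5517 of 18242 genes) became 6 with no filter on low counts (4322 of 25037) and 0 over the 27 libraries (39 of 18423). With 1 calf left out it was 1 (324 of 18442 genes without 3213, and 920 of 18363 without 5833) to 20 (without 3209, with 8095 of 18375). With the calf as replicate block, which pairs the tissues of an animal, the mean effect was called in 25 members, its variation between tissues in 14 and the tissue differences in 57 in place of 58. Among all 18242 genes tested, 677, 6642 and 17868 were called in the same order. The cause of each of these moves was not tested.

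Tissue differences were called in 56 to 59 members and differences between calves in 4 to 6 under every alternative run, and birth weight in 0 under all of them. Among all genes tested the calls numbered 17772 to 20497 for tissue, 47 to 145 for calves and 0 for birth weight. The smallest log2 ratio of the member of rank 11 turned negative without calf 3208, and ranged from -0.0355 to 0.241 over the calves left out. The other 131 alternative values for ranks 1 to 12 kept their sign and moved by less than 1 SD between replicates, but that SD is wide beside such ratios. Rank 9 fell from 0.182 to 0.00251 without 5841 and to 0.000927 with group medians, rank 6 from 0.195 to 0.0195 without 3209, and rank 4 from 0.2396 to 0.0428 without 5833. Over the 27 libraries rank 6 turned to -0.09 in the adrenal without 3209. With 4 calves in a group, or 3 where a column was left out, the number of animals limits the precision of every ratio given.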

Other observations

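MOET 3213 holds 30 (hypothalamus), 81 (pituitary), 49 (testicle) and 627 (adrenal) genes at 0 where the other 3 columns of its group average more than 5 counts, and adrenal IVP 5833 holds 318. The 27 columns that vary as counts do hold 18 to 294 such genes, so that among the 5 columns on the mean of their group the 2 from the adrenal lie above that range and the 3 others within it.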
